A study of Mus musculus with 8 samples.

Results

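The 10 genes described here, Gas5, Snhg1, Snhg3, Snhg5, Snhg6, Snhg8, Snhg12, Snhg15, Zfas1 and Epb41l4aos, are long noncoding genes that carry small nucleolar RNAs (snoRNAs) in their introns. They were taken by symbol from a table of 55385 genes measured by RNA-seq in mouse liver. 4 of them were higher in livers that lack Usp39 in hepatocytes, none was lower, and the other 5 that could be tested had higher means that did not pass the test. The remaining gene, Snhg3, was not detected above the counting floor.

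snoRNAs guide the chemical modification and processing of ribosomal RNA in the nucleolus. Box C/D snoRNAs direct 2′-O-methylation and box H/ACA snoRNAs direct pseudouridylation. In mammals nearly all of them are cut from introns of a host transcript after splicing, so a host gene makes both a spliced RNA and its snoRNAs. The spliced RNA of a noncoding host holds only short reading frames, and that of Gas5 and several others is known to be removed by nonsense-mediated decay while it is being translated. Many hosts also start with a run of pyrimidines of the kind found at the start of ribosomal protein mRNAs, the 5′ terminal oligopyrimidine (TOP) motif. Usp39 is a protein of the U4/U6.U5 tri-snRNP, a building block of the spliceosome.

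The study compared 4 Usp39-HKO male mice with 4 control male littermates, all 5 weeks old and fasted for 16 h. Usp39-HKO mice carried Usp39 alleles with loxP sites on both sides of exon 2 (Usp39 fl/fl) together with Alb-Cre, in which the albumin promoter drives Cre in hepatocytes, on a C57BL/6J background. The labels call the control mice WT, and the sources used here do not say whether the controls of this experiment carried the floxed alleles or Cre. Each library came from the whole liver tissue of 1 mouse, and totals lay between 8589636 and 10418450 counts per liver. Usp39 itself had 9.58 ± 0.71 FPKM (fragments scaled to exon length and to the total of the liver, SD, n = 4) in control livers and 8.44 ± 0.29 FPKM (SD, n = 4) in Usp39-HKO livers, with no overlap. Its log2 fold change was -0.41 (SE 0.11, edgeR adjusted p = 0.0212). Counts over the whole gene include exons outside the loxP sites and the transcripts of cells without Cre, so this value checks the labels only in part. The control liver A475 held pancreatic transcripts, with 844 FPKM summed over 13 pancreas genes against 2.92 to 6.03 FPKM in the other livers, so each count of host genes is also given without it where it moves.

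The hosts differ in the number of snoRNAs that GENCODE vM21 (GRCm38, the build that the authors name mm10) places inside them on the same strand. Gas5 (chr1:161034422-161038539, plus strand) held 9 and Snhg1 (chr19:8723475-8726443, plus strand) held 8. Snhg12 (chr4:132308623-132311024, plus strand) held 4 and Zfas1 (chr2:167062934-167065862, plus strand) held 3. Snhg5 (chr9:88521050-88522929, minus strand) and Snhg3 (chr4:132348014-132353686, minus strand) held 2 each. The others, Snhg6 (chr1:9941959-9944118, minus strand), Snhg8 (chr3:123507552-123508404, minus strand), Snhg15 (chr11:6525591-6528760, minus strand) and Epb41l4aos (chr18:33794892-33795986, plus strand), held 1 each, for 32 in all. The map of the host genes shows that each snoRNA lies between 2 exons of the transcript with most exons.

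**Figure D1:**
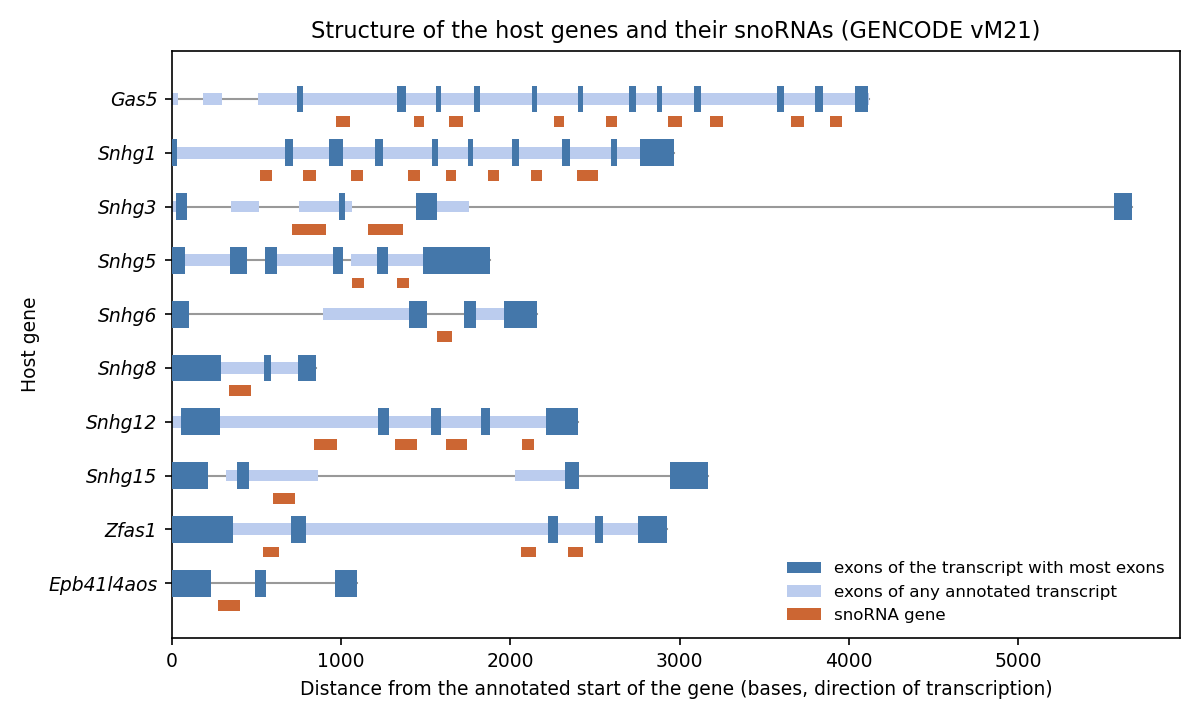
Structure of the 10 host genes in GENCODE vM21, drawn from each gene's annotated start in the direction of transcription (x axis, bases). Dark blocks are exons of the transcript with most exons, light blocks are exons of any annotated transcript and orange blocks below the line are the 32 snoRNA genes. The light blocks run through the introns of Snhg1, Snhg8, Snhg12 and Zfas1, where exons of 1 transcript or another cover 100% of the gene.

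The 4 hosts that rose hold 14 snoRNAs, of which 6 are shown as examples of what the introns of these genes make, all of Snhg15 and Snhg5, the first of 8 in Snhg1 and 2 of 3 in Zfas1. They are printed 5′ to 3′ from GENCODE vM21 transcripts, with box C (ATGATGA or GTGATGA) and box D (CTGA) in capitals in the C/D snoRNAs, and the ACA box in capitals in the H/ACA snoRNA. Only snoRNAs in which the search found these letters are shown. Of the 14 it found both C/D boxes in 9, an ACA box in 1 and neither in 4, namely Gm25894, Gm23246 and Snord22 in Snhg1 and Snord12 in Zfas1. A match is a description, and no match says only that these exact letters were not found.

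Snora9 in Snhg15 (chr11:6528033-6528165, minus strand): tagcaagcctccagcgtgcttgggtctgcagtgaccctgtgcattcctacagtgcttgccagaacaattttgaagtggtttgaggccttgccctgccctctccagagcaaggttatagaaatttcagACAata
Snord50a in Snhg5 (chr9:88521529-88521600, minus strand): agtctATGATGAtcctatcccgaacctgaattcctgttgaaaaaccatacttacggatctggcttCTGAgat
Snord50b in Snhg5 (chr9:88521797-88521868, minus strand): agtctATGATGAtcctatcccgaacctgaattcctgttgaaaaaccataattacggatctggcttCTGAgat
Gm25855 in Snhg1 (chr19:8723993-8724064, plus strand): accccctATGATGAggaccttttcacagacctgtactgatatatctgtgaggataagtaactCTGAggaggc
Gm25878 in Zfas1 (chr2:167063473-167063565, plus strand): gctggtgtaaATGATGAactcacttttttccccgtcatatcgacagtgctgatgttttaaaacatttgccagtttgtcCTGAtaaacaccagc
Gm23201 in Zfas1 (chr2:167064998-167065086, plus strand): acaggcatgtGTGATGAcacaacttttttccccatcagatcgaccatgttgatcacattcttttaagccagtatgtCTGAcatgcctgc

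The pair in Snhg5 has the same length of 72 bases and differs at 1 position, C50A, counted from 1 at the 5′ end of Snord50a with the base of Snord50a first. Snhg15 carries a single H/ACA snoRNA, while the snoRNAs printed from Snhg5, Snhg1 and Zfas1 are of the C/D kind, so both kinds of box occur among the hosts that rose.

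The start sites of the hosts were compared with the TOP motif. A window of 50 bases, 20 before and 30 from the start that RefSeq gives (GRCm38.p6), was read on the strand of the gene for 8 hosts, since Snhg6 and Epb41l4aos had no entry. The search was for a C followed by at least 4 bases that are C or T, beginning within 5 bases of the start, on the strand of transcription only. The 4 windows that hold such a run, shown in capitals, come first, followed by the windows of the 4 hosts that rose.

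Gas5, the second of 2 starts (chr1:161035146-161035195, plus strand): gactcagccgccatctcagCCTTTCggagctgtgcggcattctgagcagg
Snhg3 (chr4:132353657-132353706, minus strand): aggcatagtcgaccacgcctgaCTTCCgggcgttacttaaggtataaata
Snhg8 (chr3:123508307-123508356, minus strand): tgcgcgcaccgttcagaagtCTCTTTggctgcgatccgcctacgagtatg
Snhg12 (chr4:132308658-132308707, plus strand): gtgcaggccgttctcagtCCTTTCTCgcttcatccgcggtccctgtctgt
Snhg1 (chr19:8723467-8723516, plus strand): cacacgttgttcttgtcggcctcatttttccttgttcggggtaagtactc
Snhg5 (chr9:88522868-88522917, minus strand): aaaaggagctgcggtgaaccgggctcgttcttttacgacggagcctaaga
Snhg15 (chr11:6528731-6528780, minus strand): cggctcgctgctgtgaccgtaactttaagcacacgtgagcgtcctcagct
Zfas1 (chr2:167062914-167062963, plus strand): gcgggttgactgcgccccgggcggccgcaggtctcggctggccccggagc

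A run was found at 4 of 9 host starts (44.4%) and at 30 of 68 starts of ribosomal protein genes (44.1%). Among all 32842 starts outside the hosts, which include those of ribosomal protein genes, 6023 (18.3%) had one. The 4 hosts that rose had no run at the start RefSeq gives, and the 4 starts with a run belong to Gas5, Snhg8 and Snhg12, which did not pass the test, and to Snhg3, which was not tested. No match says only that no such run begins within 5 bases of that start. The window of Snhg5 holds a C followed by 4 T further downstream.

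Snhg15, which carries Snora9, had the largest difference among the hosts. Its FPKM was 1.72, 1.83, 1.01 and 2.10 in control livers A468, A472, A473 and A475. In Usp39-HKO livers A469, A470, A471 and A474 it was 6.79, 4.25, 7.35 and 6.40 FPKM. The lowest Usp39-HKO liver stood above the highest control, and counts went from 23 to 58 in controls to 115 to 186 in Usp39-HKO livers. The log2 fold change over all genes' common scaling was 1.66 (SE 0.24, edgeR adjusted p = 0.0013), or 3.15-fold.

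Snhg5, host of the 2 Snord50 genes, had the lowest deposited FPKM of the tested hosts in both genotypes, a place that rests on the deposited exon length (given with the order of levels). Control livers A468, A472, A473 and A475 had 1.29, 1.17, 1.51 and 1.35 FPKM. Usp39-HKO livers A469, A470, A471 and A474 had 4.73, 3.08, 4.30 and 4.73 FPKM. The groups did not overlap, and controls lay close together. Its log2 fold change was 1.43 (SE 0.18, edgeR adjusted p = 0.000838), or 2.70-fold.

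Snhg1, with its 8 snoRNAs, had 2.93, 2.48, 2.74 and 3.01 FPKM in control livers A468, A472, A473 and A475. In Usp39-HKO livers A469, A470, A471 and A474 it had 6.48, 5.45, 8.68 and 8.53 FPKM. Again the groups did not overlap. The log2 fold change was 1.14 (SE 0.16, edgeR adjusted p = 0.00119), or 2.21-fold.

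Zfas1 lies next to the promoter of Znfx1 on the other strand and carries 3 snoRNAs. Control livers A468, A472, A473 and A475 had 3.49, 9.07, 4.10 and 6.01 FPKM. Usp39-HKO livers A469, A470, A471 and A474 had 11.3, 8.98, 19.8 and 13.0 FPKM. The groups overlapped in 1 pair, since the control A472 stood just above the Usp39-HKO liver A470, and controls spread over a wider relative range than those of Snhg1 or Snhg5. The log2 fold change was 0.99 (SE 0.30, edgeR adjusted p = 0.0364). Without control liver A468, A473 or A475, or without Usp39-HKO liver A471 or A474, the adjusted p was over 0.05, and its highest value was 0.104 without A473.

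Adjusted p-values passed 0.05 in the higher direction for 4 of the 9 tested hosts, beside 10.9% of the 14340 genes tested. Over all genes 3225 were called, 48.4% of them higher. With totals alone as the scaling, 83.5% of the calls were higher, the median log2 fold change of all genes moved from -0.0015 to 0.24, and all 9 hosts were called beside 24.6% of genes in the higher direction. By the cutoff of the study, which asks for p under 0.05 before adjustment and for a log2 difference above 0.5, 6 hosts were higher (the 4 above, Snhg8 and Snhg12), beside 12.1% of genes. On the FPKM scale, which keeps the shift of 0.24 in log2, 3 hosts had no overlap between the groups in the higher direction, beside 23.9% of genes. For Snhg1, Snhg5 and Snhg15 the exact two-sided permutation test over livers gave p = 0.029, the smallest that 4 against 4 livers allow. All 9 log2 fold changes were positive, and over all genes tested 49.9% were.

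**Figure D2:**
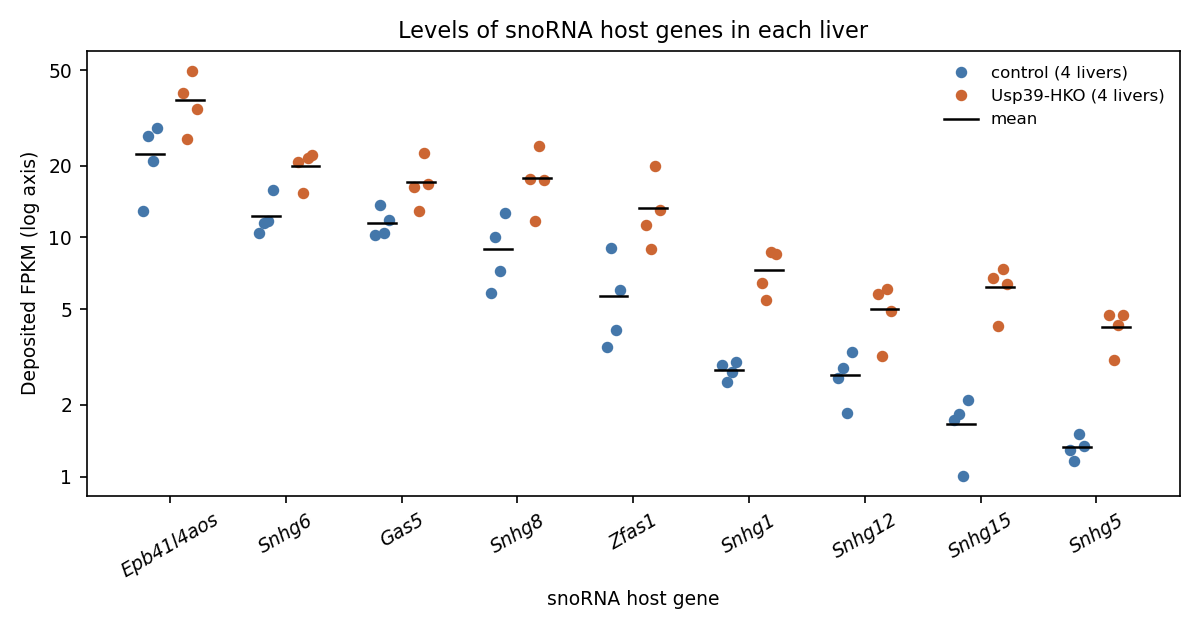
Deposited FPKM (y axis, log scale) of the 9 tested host genes in 4 control livers (blue) and 4 Usp39-HKO livers (orange), 1 point per liver, with black bars at the means. Snhg1, Snhg15 and Snhg5 show no overlap between the groups, and the other 6 overlap in at least 1 liver.

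Snhg8 and Snhg12 missed the threshold narrowly. Snhg8 is the shortest of these genes at 853 bases and carries the H/ACA snoRNA Snora24. It had 5.87, 10.1, 7.23 and 12.6 FPKM in control livers A468, A472, A473 and A475, and 17.6, 11.7, 24.1 and 17.4 FPKM in Usp39-HKO livers A469, A470, A471 and A474. 3 of the 4 Usp39-HKO livers stood above every control, and the log2 fold change was 0.75 (SE 0.26, edgeR adjusted p = 0.0595). Snhg12 carries Snora16a, Snora44, Snora61 and Snord99. It had 2.58, 2.86, 1.84 and 3.32 FPKM in control livers A468, A472, A473 and A475, and 5.83, 3.19, 6.11 and 4.92 FPKM in Usp39-HKO livers A469, A470, A471 and A474. Here too A470 fell within the control range, and the log2 fold change was 0.69 (SE 0.24, edgeR adjusted p = 0.0625).

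Snhg6, Gas5 and Epb41l4aos were the most abundant of the hosts together with Snhg8, and had the smallest differences. Snhg6, host of Snord87, had 10.5, 11.4, 11.7 and 15.8 FPKM in control livers A468, A472, A473 and A475. Its values were 20.7, 15.3, 21.6 and 22.1 FPKM in Usp39-HKO livers A469, A470, A471 and A474, and its log2 fold change was 0.45 (SE 0.16, edgeR adjusted p = 0.0622). Gas5, named for its accumulation in growth-arrested cells, is the host in which the link to nonsense-mediated decay was first worked out. It had 10.2, 13.6, 10.5 and 11.9 FPKM in control livers A468, A472, A473 and A475, and 16.3, 12.9, 22.6 and 16.7 FPKM in Usp39-HKO livers A469, A470, A471 and A474. Its log2 fold change was 0.34 (SE 0.17, edgeR adjusted p = 0.171), the smallest of the 9. Epb41l4aos, a short antisense RNA at the Epb41l4a locus, had 12.9, 26.5, 20.8 and 28.8 FPKM in control livers A468, A472, A473 and A475. Usp39-HKO livers A469, A470, A471 and A474 had 40.2, 25.8, 49.7 and 34.6 FPKM, and the log2 fold change was 0.52 (SE 0.26, edgeR adjusted p = 0.172). In each of these genes A470 lay within the control range, and the exact two-sided permutation test on FPKM gave p = 0.057 for Snhg6 and Gas5 and p = 0.086 for Epb41l4aos.

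Snhg3, host of the H/ACA pair Snora73a and Snora73b, had 0 counts in 7 livers and 1 count in the Usp39-HKO liver A470. Counts of 3 or fewer per liver, the floor used here, correspond to at most 0.349 CPM (counts relative to each liver's total), so no comparison was made. In the annotation 71.5% of the exon bases of Snhg3 are shared with Gm17300 on the other strand and 13.7% with Rcc1 on the same strand. The library kit is not described as keeping strand, and how reads on shared bases were counted is not given in the sources used here, so a count near 0 cannot be read as lack of the transcript. Rcc1, the nucleotide exchange factor of Ran, had 2.13 ± 0.53 FPKM (SD, n = 4) in control and 3.85 ± 0.38 FPKM (SD, n = 4) in Usp39-HKO livers, with a log2 fold change of 0.62 (SE 0.19, edgeR adjusted p = 0.0361). Gm17300 had 3 to 14 counts per liver and a log2 fold change of 0.64 (SE 0.46, edgeR adjusted p = 0.351).

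**Figure D3:**
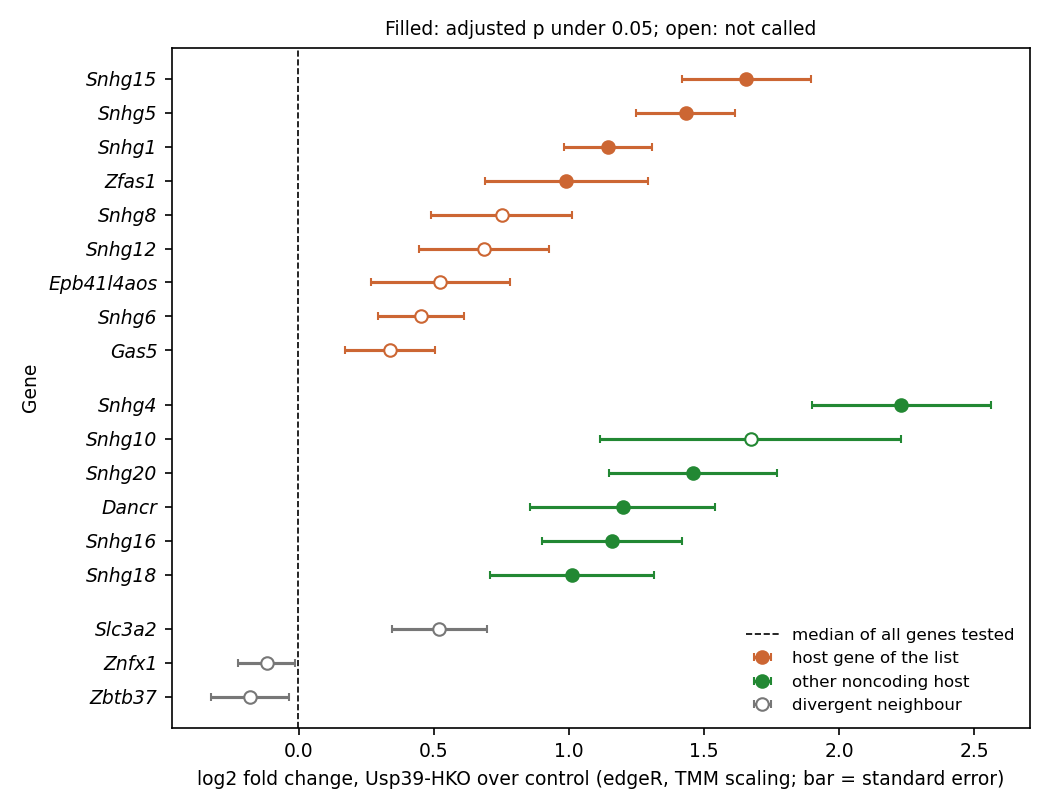
Log2 fold changes between genotypes, positive where Usp39-HKO livers were higher (x axis, edgeR with TMM scaling, bars are standard errors) for the 9 tested hosts (orange), 6 other noncoding snoRNA hosts (green) and 3 neighbours that start within 1000 bases on the other strand (grey). Filled points passed an adjusted p of 0.05, and the dashed line is the median of all genes tested, -0.0015. The 9 hosts run from 0.34 for Gas5 to 1.66 for Snhg15, and Snhg4, at 2.23, entered the test only through its Usp39-HKO livers.

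By deposited FPKM the hosts stood in a similar order in both genotypes. Epb41l4aos led in both, at a mean of 22.3 FPKM in control and 37.6 FPKM in Usp39-HKO livers. In control livers Snhg6, Gas5, Snhg8 and Zfas1 followed, then Snhg1, Snhg12, Snhg15 and Snhg5. In Usp39-HKO livers Snhg8 moved ahead of Gas5 and Snhg15 ahead of Snhg12. The ranges of neighbours in this order overlapped, except between Zfas1 and Snhg1 in both genotypes, between Epb41l4aos and Snhg6 in Usp39-HKO livers, and between Snhg5 and Snhg3. FPKM depend on the length used, and the deposited exon length differs from vM21 for Snhg5 (3634 against 1730 bases), Snhg15 (2652 against 1359 bases) and Zfas1 (1901 against 2929 bases). Divided by the vM21 lengths, the same counts give means of 2.79 FPKM in control and 8.84 FPKM in Usp39-HKO livers for Snhg5. They give 3.25 and 12.1 FPKM for Snhg15, and 3.68 and 8.62 FPKM for Zfas1. Snhg12, at 2.65 and 5.01 FPKM, would then be the lowest tested host in both genotypes. The places of these 3 in the order thus turn with the length. A change of divisor alone leaves the comparison of genotypes as it is. The deposited length of Snhg5 exceeds its whole vM21 span of 1880 bases, so the bases counted for these 3 hosts can differ from vM21. Whether counts over the vM21 exons would change the comparison of genotypes was not tested.

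The same livers stood at the ends of a genotype for most hosts. The Usp39-HKO liver A470 was the lowest of its group in 9 of 9 tested hosts, and A471 was the highest in 7 of 9. Among controls, A475 was the highest in 6 of 9 and A468 the lowest in 5 of 9. The mean of the 9 hosts on the log2(CPM + 1) scale, each centred on its own mean over the 8 livers, was -0.61, -0.26, -0.57 and -0.19 in controls A468, A472, A473 and A475. In Usp39-HKO livers A469, A470, A471 and A474 it was 0.55, -0.04, 0.76 and 0.35. These values share scaling factors and libraries, and are a description.

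**Figure D4:**
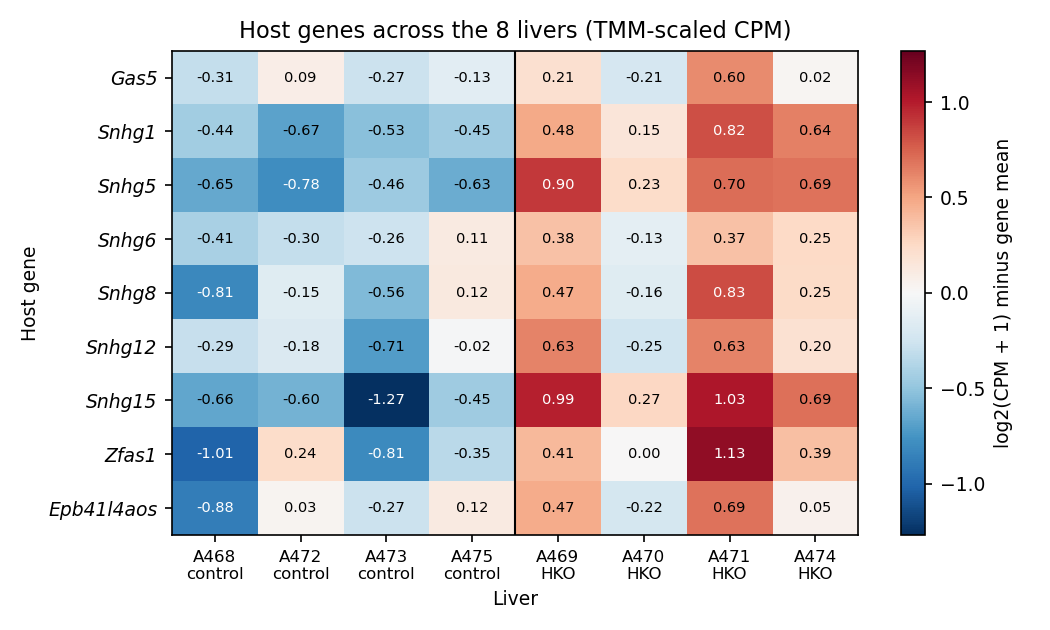
TMM-scaled log2(CPM + 1) of the 9 tested hosts (rows) in each liver (columns, 4 control and 4 Usp39-HKO), with the mean of the gene over the 8 livers subtracted. In the column of A470 no value lies above 0.27, whereas A471 reaches 1.13 for Zfas1 and 1.03 for Snhg15.

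Leaving out A470 changed how many hosts passed. Without it 7 of 9 hosts were called, all but Gas5 and Epb41l4aos, beside 9.66% of genes called higher, and 8 passed the cutoff of the study, beside 11.9%. All 9 then showed no overlap in FPKM, beside 29% of genes in the same 3 against 4 livers. Without the control liver A475, 5 hosts were called beside 7.22% of genes, 8 passed the cutoff of the study beside 11.4%, and 6 did not overlap beside 27.2%. Without A472, 5 did not overlap, beside 30.3% of genes. Without any of A468, A473, A471 or A474, 3 were called, and Zfas1 was the host lost. Genes called higher in these fits were 1122 of 14103, 982 of 14143, 1126 of 13924 and 920 of 13833, in that order. Snhg1 was called in 16 of 16 alternative analyses, and Snhg5 and Snhg15 in 15 of the 15 in which each was tested. Gas5 passed in 3 of 16 and Epb41l4aos in 1 of 16. No alternative reversed a sign.

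Ratios of counts between 2 hosts in the same liver do not depend on scaling between livers. Log2 ratios (with 0.5 added to each count) were compared between genotypes for all 36 pairs of tested hosts, and 11 pairs showed no overlap in either direction. Among all pairs of tested genes 24.1% did, so the count for the hosts is near that background. The log2 ratio of Snhg15 to Gas5, the tested hosts with the largest and the smallest fold change, differed by 1.35 between the group means and did not overlap. The pair was picked for those fold changes, so its separation follows from the choice and adds no result. With p-values adjusted over the 36 pairs, the smallest was 0.094 (exact two-sided permutation test), so no pair passed 0.05. At this number of livers the unadjusted p cannot go below 0.029.

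3 hosts share a start region with a protein-coding gene on the other strand. Slc3a2, the heavy chain of amino acid transporters, starts 106 bases from Snhg1. It had 13.2 ± 2.0 FPKM in control and 22.1 ± 4.7 FPKM in Usp39-HKO livers (SD, n = 4 each), and a log2 fold change of 0.52 (SE 0.18, edgeR adjusted p = 0.0533). Znfx1, an RNA helicase that starts 81 bases from Zfas1, had a log2 fold change of -0.12 (SE 0.11, edgeR adjusted p = 0.459). Zbtb37, a zinc finger gene that starts 427 bases from Gas5, had -0.18 (SE 0.14, edgeR adjusted p = 0.40). The log2 count ratio of Zfas1 to Znfx1 was 1.15 higher on average in Usp39-HKO livers, with groups that overlapped. That of Snhg1 to Slc3a2 was 0.63 higher, without overlap, and that of Gas5 to Zbtb37 was 0.51 higher, with overlap. Adjusted over the 3 pairs, the exact two-sided permutation test gave p = 0.086, 0.086 and 0.14, so none passed.

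Zfas1 and Znfx1 share 2.8% of the exon bases of Zfas1 on opposite strands, and reads there cannot be assigned without strand. A further 6.45% of its exon bases lie in a small RNA gene annotated on the same strand. Snhg6 shares 11.1% of its exon bases with Mcmdc2 on the other strand. Mcmdc2 had at most 10 counts in any liver and was not tested. The other tested hosts share no exon bases with a gene on the opposite strand.

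The snoRNA genes themselves had almost no counts in these libraries. Of 32 in the hosts, 29 had 0 counts in all 8 livers. In the annotation, 29 of the 32 overlap exons of their host and 28 lie wholly inside them, because some transcripts of the host keep introns. How reads on bases shared by a host and its snoRNA were counted is not given in the sources used here. Such reads may have been left out or given to the host, so 0 counts cannot be read as lack of reads. Gm23201 in Zfas1, printed above, had 0, 0, 0 and 6 counts in control livers A468, A472, A473 and A475 and 3, 14, 5 and 6 counts in Usp39-HKO livers A469, A470, A471 and A474. Gm23639 in Epb41l4aos had 0, 1, 0 and 3 counts in the same controls and 2, 4, 3 and 6 counts in the same Usp39-HKO livers. Snord87 in Snhg6 had 2 counts over all livers. These counts are too few for a comparison. In the annotation Snord87 and Gm23639 share no bases with exons of their host, while Gm23201 lies wholly inside them. A host count in turn pools spliced molecules with those that keep an intron, and the deposited table does not separate them.

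Spliced host transcripts were read for the layout that nonsense-mediated decay acts on, an exon junction more than 50 bases past the stop codon. Taking the first ATG of each transcript, 71 of 82 spliced host transcripts (86.6%) had such a junction. Among other spliced noncoding transcripts 9881 of 13353 (74%) had one. The host transcripts include those annotated as keeping an intron and the other transcripts do not, so the shares are of unlike sets. The layout is common in both. Among spliced coding transcripts, read at the annotated stop, 318 of 56058 (0.567%) had one. Only transcripts annotated as protein coding entered that share. GENCODE gives coding-gene transcripts with this layout a class of their own, so that share is low by definition. The layout is a reading of the annotation, not a measurement of decay.

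Other noncoding snoRNA hosts were looked up from a list of 12. 8 had a row under that symbol and 6 were tested, of which Snhg4 passed the filter on low values only through the 4 Usp39-HKO livers and so had to differ. Of the other 5, 4 were higher in Usp39-HKO livers, beside 10.9% of all genes tested, and none was lower. Their median log2 fold change was 1.198. Snhg4 had 0.187, 0.432, 0.1996 and 0.453 FPKM in control livers A468, A472, A473 and A475 and 1.12, 1.41, 2.25 and 2.44 FPKM in Usp39-HKO livers A469, A470, A471 and A474. Its log2 fold change was 2.23 (SE 0.33, edgeR adjusted p = 0.00148). Snhg20 had 1.26 ± 0.35 FPKM in control and 4.08 ± 1.76 FPKM in Usp39-HKO livers (SD, n = 4 each), with a log2 fold change of 1.46 (SE 0.31, edgeR adjusted p = 0.00775). Snhg16, Dancr and Snhg18 rose by log2 1.16, 1.198 and 1.01. Snhg10 had 2 to 20 counts per liver and a log2 fold change of 1.67 that missed the threshold (edgeR adjusted p = 0.0508). Snhg11 was below the filter, and Snhg9 had 0 counts in all livers. The order of livers differed from that of the first 9 hosts, since A469 and not A470 was the lowest Usp39-HKO liver in 4 of these 6 genes.

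**Figure D5:**
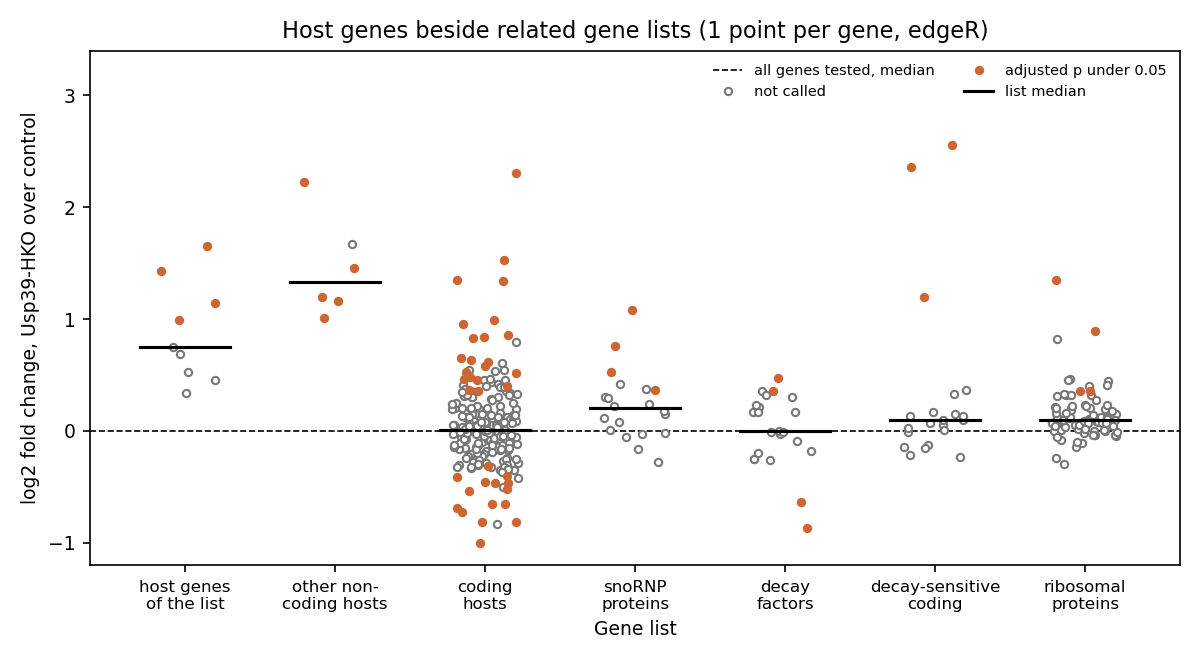
Log2 fold change (y axis, edgeR with TMM scaling) of each tested gene of 7 lists, 1 point per gene, filled where the adjusted p was under 0.05, with black bars at list medians. The dashed line is the median of all genes tested. Values above 0 were found for 9 of 9 hosts, 110 of 210 coding hosts, 15 of 20 snoRNP proteins, 11 of 22 decay factors, 15 of 21 decay-sensitive coding genes and 63 of 79 ribosomal protein genes, beside 49.9% of all genes, and the list of other noncoding hosts includes Snhg4.

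Protein-coding genes that host snoRNAs were called in both directions, at shares no greater than those of all genes. Of 278 such genes in the annotation, 210 were tested, 21 were higher (10%) and 15 lower (7.14%). Over all genes tested the shares were 10.9% and 11.6%, and the median log2 fold change of the coding hosts was 0.01. Gnl3, which encodes the nucleolar GTPase nucleostemin, rose by log2 0.99 (SE 0.15, edgeR adjusted p = 0.00148). Taf1d, a subunit of an RNA polymerase I initiation factor, rose by log2 0.83 (SE 0.12, edgeR adjusted p = 0.0015). In the other direction Mpdz, a scaffold of tight junctions, had a log2 fold change of -1.003 (edgeR adjusted p = 0.00105) and Ero1lb, an oxidase of the endoplasmic reticulum, one of -0.81 (edgeR adjusted p = 0.00122). Of the 210 coding hosts, 30 are ribosomal protein genes.

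The proteins that bind snoRNAs or help to assemble them into snoRNPs had a median log2 fold change of 0.20. Of 20 tested, 4 were higher (20%) and none was lower, beside 10.9% higher and 11.6% lower of all genes. Nop58, a core protein of C/D snoRNPs, had 2.81 ± 0.20 FPKM in control and 4.78 ± 0.53 FPKM in Usp39-HKO livers (SD, n = 4 each), a log2 fold change of 0.53 (SE 0.10, edgeR adjusted p = 0.00401). Gar1, a core protein of H/ACA snoRNPs, had a log2 fold change of 1.08 (SE 0.26, edgeR adjusted p = 0.0136). Like the hosts, Gar1 was lowest among Usp39-HKO livers in A470, at 4.41 FPKM against 8.49 to 9.36 FPKM in the other 3. Nhp2 of the H/ACA snoRNP and the assembly factor Nufip1, named because the count is small, rose by log2 0.76 and 0.37.

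Ribosomal protein genes, which share the TOP motif with some hosts, had 4 of 79 higher (5.06%), none lower and a median log2 fold change of 0.10. Over all genes tested 10.9% were higher and 11.6% lower. Rpl12 had 40.8 ± 2.1 FPKM in control and 61.7 ± 7.0 FPKM in Usp39-HKO livers (SD, n = 4 each), a log2 fold change of 0.36 (SE 0.10, edgeR adjusted p = 0.0211). Rps27a rose by log2 0.89 (SE 0.23, edgeR adjusted p = 0.0186), but its Usp39-HKO liver A469 lay in the control range. The other 2 were Rps15a and Rpl7a. Ribosomal protein genes have many near-identical processed copies, so their counts are uncertain.

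Factors of nonsense-mediated decay were split in direction, with 2 of 22 higher (9.09%), 2 lower (9.09%) and a median log2 fold change of -0.003. Both shares are near those of all genes, 10.9% higher and 11.6% lower. Pnrc2, which links decay to decapping, rose by log2 0.48 (SE 0.10, edgeR adjusted p = 0.0074), and Rnps1, a peripheral protein of the exon junction complex, rose by log2 0.35 (SE 0.11, edgeR adjusted p = 0.0452). Nbas, which also acts in transport from the Golgi to the endoplasmic reticulum, fell by 0.87 on the log2 scale (SE 0.13, edgeR adjusted p = 0.00137). Upf3b, which bridges the exon junction complex and Upf2, fell by 0.64 (SE 0.14, edgeR adjusted p = 0.00951). Of 21 coding genes with transcripts known to be sensitive to this decay 3 were higher (14.3%, near the 10.9% of all genes). None was lower, and the median log2 fold change was 0.09. Many of the 21 are splicing factors, and counts over the whole gene do not separate their decay-sensitive transcripts from the others. These values therefore do not measure decay. The 3 higher genes were Ddit3 (log2 fold change 1.195, SE 0.22, edgeR adjusted p = 0.00401), Gadd45a (2.36, SE 0.44, edgeR adjusted p = 0.00422) and Atf3 (2.56, edgeR adjusted p = 0.0052). All 3 are also genes of general stress responses.

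The tested genes outside the list whose profile over the 8 livers was nearest to the mean profile of the hosts were Mfsd10, Slc20a1, Bax, Mafk and Arhgdia. Likeness was the root mean square distance between centred log2(CPM + 1) values, which ran from 0.10 for Mfsd10 to 0.14 for Arhgdia. Mfsd10 is a membrane transporter, Slc20a1 a phosphate carrier, Bax a mediator of apoptosis and Mafk a small Maf transcription factor. Bax had a mean of 8.95 FPKM in control and 20.5 FPKM in Usp39-HKO livers.

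Markers of other cell types and of dividing cells moved with genotype in the same libraries. The counts called stand beside 10.9% higher and 11.6% lower over all genes tested. Summed FPKM of 8 biliary markers were 35.0 to 37.4 in control and 73.8 to 299 in Usp39-HKO livers, and 4 of 6 tested were higher. For 10 stellate cell and fibroblast markers the ranges were 71.6 to 84.4 and 119 to 259, with 8 of 10 higher. For 10 Kupffer cell and macrophage markers they were 353 to 485 and 656 to 945, with 8 of 10 higher. For 10 proliferation genes they were 13.3 to 20.2 and 38.7 to 58.9, with 9 of 10 higher. Hepatocyte markers summed to 18965 to 20565 in control and 16169 to 21819 in Usp39-HKO livers, with 5 of 10 lower, and 5 of 5 tested erythroid genes were lower. Endothelial markers were 133 to 151 and 147 to 158, with 2 of 8 lower, and lymphocyte markers were 6.06 to 7.34 and 7.99 to 10.7, with 1 of 6 higher. No marker was at 0 in all livers. Within the Usp39-HKO group the biliary sum was lowest in A469 (73.8) and highest in A474 (299), and the proliferation sum was lowest in A471 (38.7), the liver in which 7 hosts were highest. The part of these cells in the host gene differences was not tested. In bulk tissue, a change in the number of cells of a type and a change in RNA per cell cannot be told apart.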

How the data were processed

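Liver RNA (TRIzol, NEBNext Ultra kit, paired-end reads) of 4 Usp39-HKO and 4 control mice was sequenced by the study, 1 library per mouse. The labels name no batch, and separate mice are the replicates. The submitters' processing notes and the study's methods name Trim Galore 0.6.1, FastQC 0.11.9, HISAT2 on mm10, Picard and featureCounts. The methods of the study give the versions of Trim Galore and FastQC for its RNA immunoprecipitation libraries, not for the liver libraries. The annotation release and strand setting are not given in the sources used here, and 99.1% of the genes matched have the vM21 exon length. The authors deposited raw counts per gene and FPKM made from those counts, exon length and the total of the liver (recomputed within a relative deviation of 2.0e-07). They also deposited a mean signal, a log2 fold change, scores (its standard error and a Wald statistic) and p-values from DESeq2, which were not used.

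The 55699 entries hold 314 repeats and 55385 genes. Genes with FPKM of at least 0.5 in at least 4 livers (14340) were tested with the edgeR 4.0.16 quasi-likelihood test (R 4.3.3), TMM scaling (factors 0.911 to 0.940 in controls, 1.01 to 1.19 in Usp39-HKO), no covariate and Benjamini-Hochberg adjustment over all genes, called at 0.05. The common biological coefficient of variation was 0.179. The procedure was tested on simulated data. All 9 detected hosts passed the filter in all 8 livers. Exact permutation tests (scipy 1.17.1) used all 70 assignments of livers. Alternatives were DESeq2 1.42.0, limma 3.58.1 on log2(FPKM + 1) and log2(FPKM + 0.1), other scalings and filters, and leaving out each liver. Totals gave a floor of 3 counts, which was 0.288 to 0.349 CPM, and floors cover counting error only, as reads without molecular identifiers are not independent molecules.

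Members and lists were chosen with earlier results of these data known. The genes named are all members, Usp39, the 2 called genes with the lowest adjusted p in each direction of a list, neighbours that start within 1000 bases on the other strand or share exon bases, snoRNAs inside members, and the 5 nearest profiles. The ratios of counts and Atf3, Nhp2, Nufip1, Rps15a and Rpl7a were chosen after the values were seen. RefSeq starts matched 8 of 10 members.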

Additional observations from a re-analysis of the deposited data

Results flagged for a closer look

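Over the named genes, 100 combinations of a gene and a genotype were checked for 1 liver that stands far from the other 3. None of the 9 tested host genes was among those found. By chance about 1 in 20 combinations would be. Among other genes, Dancr had 1.27 FPKM in control liver A475 against 0.645 to 0.744 in the other controls, and Gm17300, which overlaps Snhg3, had 0.762 FPKM in control liver A473 against 0.214 to 0.264. Nop58 had 5.57 FPKM in Usp39-HKO liver A474 against 4.45 to 4.61, and Ero1lb had 6.57 FPKM in Usp39-HKO liver A471 against 5.20 to 5.39. Epcam had 1.29 FPKM in control liver A472 against 0.844 to 0.875, Ccna2 had 1.19 FPKM in the same liver against 0.640 to 0.713, and Lyve1 had 28.8 FPKM in control liver A473 against 20.9 to 21.8.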

How the results depend on the processing

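The number of the 9 tested hosts called, 4 with edgeR and TMM scaling, was 7 with DESeq2, 8 with limma on log2(FPKM + 1), 8 with limma on log2(FPKM + 0.1) and 9 with no scaling beyond the total. The share of all genes called higher, 10.9%, was 11.9%, 21.1%, 21.3% and 24.6% in the same settings. The number of hosts called ranged from 3 to 7 when 1 liver was left out. It was 4 with median-ratio scaling, beside 1606 of 14340 genes called higher, and 4 with filterByExpr, beside 1715 of 13936. Without a filter on low values it was 6 (beside 6.41% of genes). Of the 6 hosts that remain with a mean FPKM of at least 5, 3 were called, beside 750 of 6672 genes called higher. Hosts past the cutoff of the study, 6, ranged from 5 to 8 when 1 liver was left out. Hosts without overlap in FPKM, 3, ranged from 3 to 9, and were 3 on TMM-scaled CPM (no share over all genes is given for that scale). Calls over all genes, 3225, fell to 1595 of the 6672 genes with a mean FPKM of at least 5 and ranged from 1917 to 3321 when 1 liver was left out. Fewer genes or livers enter those analyses, and for the other differences the cause was not tested. No host changed sign under any alternative. No paired analysis was possible because mice are named individually and no label pairs a control with a Usp39-HKO mouse. Low counts limit Snhg3, Snhg9, Snhg10 and the snoRNA genes.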
